A study of Mus musculus with 4 samples.

Results

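Genes of cholesterol and fatty acid synthesis were described in small intestinal group 3 innate lymphoid cells (ILC3s) with and without Brg1, the ATPase of the SWI/SNF (BAF) chromatin remodeling complexes. The 42 genes were taken by symbol from a pathway list that covers sterol sensing, the enzymes from acetyl-CoA to cholesterol, sterol transport, and the synthesis and activation of fatty acids. They were 42 of the 53379 genes in the expression file, and 39 of them were among the 14739 genes expressed highly enough to be tested. RNA-seq compared 2 libraries of Brg1-sufficient ILC3s with 2 libraries of Brg1-deficient ILC3s. Both came from mixed chimeras, in which Rag2-/-Il2rg-/- mice were sublethally irradiated and received equal numbers of bone marrow cells of both donors. Brg1-sufficient cells derived from Thy1.2 Rag1-/- Smarca4 f/f donors, whose floxed Smarca4 alleles stay intact for lack of Cre. Brg1-deficient cells derived from Thy1.1Thy1.2 Rag1-/- Smarca4 f/f donors that also carried a Cre transgene, which deletes Smarca4 in ILC3s. Cells of both origins were sorted from the lamina propria 6 to 7 weeks after transfer, as Thy1.2high CD45low cells without or with Thy1.1. Donors of both genotypes lacked Rag1, and the recipients lacked Rag2 and Il2rg. Genotype and the Thy1.1 marker went together in all 4 libraries, so their parts cannot be told apart. The study's methods call the libraries of a group biological duplicates, and the labels do not tie them to individual recipients.

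Cholesterol is built from acetyl-CoA through mevalonate, squalene and lanosterol. The enzymes of this route, and many of fatty acid synthesis, are transcriptional targets of the sterol regulatory element-binding proteins (SREBPs), which Scap escorts to the Golgi for cleavage when membrane sterol is low and which Insig proteins hold in the endoplasmic reticulum when it is high. Sterols in excess activate the liver X receptors (LXRs), which induce efflux transporters such as Abca1. In lymphocytes, proliferation draws on this synthesis.

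Expression was given as FPKM, the fragments mapped to a gene relative to the length of its transcript and to the number of fragments in the library. The Smarca4 transcript had 17.1 and 16.7 FPKM in Brg1-sufficient against 9.98 and 9.03 FPKM in Brg1-deficient libraries. Its mean in Brg1-deficient ILC3s was thus 56.2% of that in controls, with a log2 fold change of -0.77 (adjusted p = 0.153, limma with Benjamini-Hochberg adjustment), and a value for the whole gene does not separate transcripts of the deleted allele from intact ones. All 14 ILC3 markers checked were above 1 FPKM, with summed levels of 12525 to 27709 FPKM. Il22 made up most of each sum, at 8328 and 10408 FPKM in Brg1-sufficient and 21159 and 10408 FPKM in Brg1-deficient libraries. Of the 14, 4 were lower and 4 higher without overlap, where 20.2% and 24.4% of all genes tested separated so. Of 10 ILC1 and NK cell markers, 4 were lower without overlap, among them Ncr1 (31.3 and 35.5 against 5.37 and 6.02 FPKM), and 3 were higher. Summed ILC2 markers stood at 489.5 and 222 FPKM in Brg1-sufficient and at 96.2 and 122 FPKM in Brg1-deficient libraries, and all 9 that were tested were lower in both Brg1-deficient libraries than in either Brg1-sufficient one. The other marker, Il13, was at 1.04 and 0.50 FPKM in Brg1-sufficient libraries and was listed at 0 in both Brg1-deficient libraries. Summed T cell markers were at 135 and 59.9 FPKM against 34.8 and 45.2 FPKM, with 4 of 8 lower without overlap and none at 0. By the study's account, Rag1-/- mice lack T and B cells and the recipients lack adaptive immune cells. These markers thus cannot be read as a measure of T cells here, and which cells carried them was not tested. Over all genes tested, 20.2% separated downward. The part of other cells or of ILC3 subsets in the results was not tested. A lower value in bulk RNA cannot separate fewer cells with a transcript from less RNA per cell.

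Differences were tested with limma on log2(FPKM + 1), a scale that understates the change of weakly expressed genes. At an adjusted p under 0.05, 0 of the 39 genes were called, where 0.305% of all genes tested were called, 0.224% as lower and 0.0814% as higher. At an unadjusted p under 0.05, 6 genes were higher and 2 were lower in Brg1-deficient ILC3s, and over all genes tested these shares were 6.12% and 6.47%. In alternative fits the number called at an adjusted p under 0.05 lay between 0 and 1. A wider limit, set by an unadjusted p under 0.05, an adjusted p under 0.4, a mean above 5 FPKM in at least 1 group and means that differed by over 0.5 on the log2 scale, took 4 genes as higher (Hmgcs1, Msmo1, Sc5d and Dhcr7) and 1 as lower (Acsl1). The same limit took 3.85% of all genes tested as higher and 4.37% as lower (8.22% in either direction). All 4 higher genes encode sterol synthesis enzymes. In 15 genes both Brg1-deficient libraries were above both Brg1-sufficient libraries, and in 4 they were below, while such a separation upward held for 24.4% and downward for 20.2% of all genes tested (44.6% in either direction). The median log2 fold change of the 39 genes was 0.17, with a range of -1.17 to 0.89, and that of all genes tested was 0.03. With 2 libraries in each group the smallest p of a two-sided exact permutation test is 0.333, so every p below rests on the variance that limma shares across genes.

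**Figure D1:**
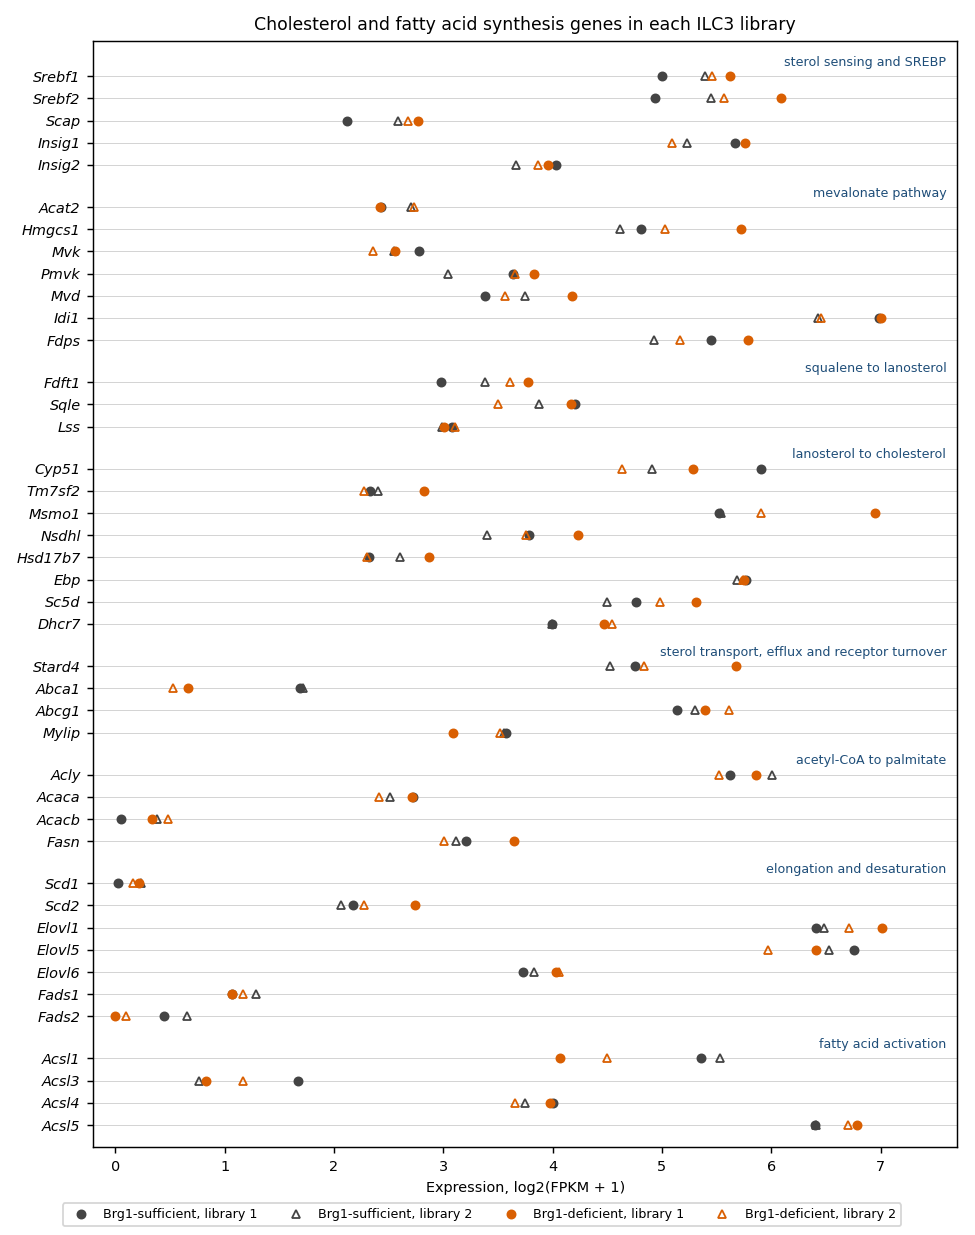
Level of the 42 genes in the 4 libraries, by role in the pathway. The horizontal axis is log2(FPKM + 1), gray and orange mark Brg1-sufficient and Brg1-deficient libraries, and circles and triangles mark libraries 1 and 2. Acsl1 and Abca1 stand apart to the left in the Brg1-deficient libraries, and Msmo1 reaches 122 FPKM in Brg1-deficient library 1.

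The levels themselves spread widely between genes. Because FPKM is scaled to transcript length, genes can be set side by side on it. The highest means were those of Elovl1, an elongase of very long chain fatty acids, with 86.2 FPKM in controls and 116 FPKM without Brg1, and of Idi1, which isomerizes isopentenyl diphosphate, at 105 and 107 FPKM. Elovl5, an elongase of polyunsaturated fatty acids, followed at 99.3 and 72.9 FPKM, and the acyl-CoA synthetase Acsl5 at 83.6 and 106 FPKM. Idi1 ranged from 84.8 to 126 FPKM in Brg1-sufficient and from 86.5 to 128 FPKM in Brg1-deficient libraries, so its order against Elovl1 was not resolved. Elovl5 was at 107 and 91.5 FPKM in Brg1-sufficient and at 84.0 and 61.7 FPKM in Brg1-deficient libraries. It thus stood above Elovl1 and Acsl5 in controls and below them without Brg1. At the other end were 3 genes under the limit of 1 FPKM in both groups, which were not tested. Scd1, a stearoyl-CoA desaturase, lay between 0.02 and 0.18 FPKM, while its paralog Scd2 lay between 3.19 and 5.69 FPKM in the same libraries. Acacb, the mitochondrial form of acetyl-CoA carboxylase, lay between 0.04 and 0.40 FPKM, while the cytosolic form Acaca lay between 4.31 and 5.61 FPKM. Fads2, a delta-6 desaturase, was at 0.36 and 0.58 FPKM in Brg1-sufficient libraries and was listed at 0 and 0.07 FPKM in Brg1-deficient libraries.

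The SREBP genes and their regulators came first in the pathway. Srebf2, whose product mainly drives the sterol enzymes, was at 29.7 and 42.7 FPKM in Brg1-sufficient libraries against 67.1 and 46.5 FPKM in Brg1-deficient libraries. The groups did not overlap, but the nearest libraries of the groups, at 42.7 and 46.5 FPKM, were closer to each other than to their own replicates. The log2 fold change of Srebf2 was 0.64 (standard error, SE, 0.26; adjusted p = 0.408, limma). Srebf1, whose product mainly drives fatty acid synthesis, was at 31.0 and 41.1 FPKM against 48.4 and 43.0 FPKM, with a log2 fold change of 0.34 (adjusted p = 0.526, limma). Scap, the SREBP escort, was at 3.35 and 5.0 FPKM against 5.81 and 5.39 FPKM, also without overlap (log2 fold change 0.37, adjusted p = 0.603, limma). Thus the 2 Srebf genes and Scap each had both Brg1-deficient libraries above both Brg1-sufficient libraries, where 24.4% of all genes tested separated so. None of them passed the test. The 2 retention factors did not share this pattern. Insig1, itself an SREBP target, was at 49.8 and 36.4 FPKM against 53.2 and 33.2 FPKM, with overlapping groups and a log2 fold change of -0.02 (95% confidence interval -0.72 to 0.68). Insig2 was at 15.3 and 11.7 FPKM against 14.5 and 13.6 FPKM, again overlapping (log2 fold change 0.07).

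Of the 18 sterol synthesis enzymes, 15 had a positive log2 fold change, as did 53.5% of all genes tested, and 11 lay above the median of all genes tested, 0.03. Their own median was 0.23. By an unadjusted p under 0.05, 4 were higher and 0 were lower, where 6.12% of all genes tested were higher and 6.47% lower. In 6 of the 18 the groups did not overlap, each with Brg1-deficient ILC3s higher, where 24.4% of all genes tested separated upward and 44.6% in either direction. Msmo1, which oxidizes the C4 methyl groups of the sterol ring, had the largest log2 fold change of them. It was at 45.0 and 45.5 FPKM in Brg1-sufficient libraries against 122 and 58.8 FPKM in Brg1-deficient libraries. Both Brg1-deficient libraries were higher, but they differed from each other by 2.08-fold. The means differed by 2.0-fold, with a log2 fold change of 0.89 (SE 0.34, unadjusted p = 0.0452, adjusted p = 0.382, limma). Hmgcs1, which makes HMG-CoA at the entry to the mevalonate pathway, was at 27.1 and 23.5 FPKM against 51.8 and 31.7 FPKM. Its groups were also separate, with Brg1-deficient library 1 again farthest out (log2 fold change 0.67, SE 0.26, unadjusted p = 0.0468, adjusted p = 0.385, limma). Sc5d, a sterol desaturase close to the end of the pathway, was at 26.2 and 21.6 FPKM against 38.6 and 30.6 FPKM (log2 fold change 0.51, adjusted p = 0.367, limma), without overlap. Dhcr7, which reduces 7-dehydrocholesterol to cholesterol, was at 15.0 and 14.9 FPKM against 21.2 and 22.3 FPKM. It was the sterol enzyme with the closest replicates among these 4, and its log2 fold change was 0.51 (SE 0.15, unadjusted p = 0.0173, adjusted p = 0.265, limma).

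The promoters of Hmgcs1 and Msmo1 are shown because these enzymes had the largest log2 fold changes of the sterol route, and that of Acsl1, which differed in the opposite direction, is shown because it and Hmgcs1 were the only genes with the sterol element searched among the 34 for which a promoter was found. The pair of Hmgcs1 and Acsl1 was picked after the values were seen. Sequences are from RefSeq on GRCm38.p6, run from 250 bases before to 50 bases after an annotated transcript start, and are written on the strand of the gene. Hmgcs1 (ENSMUSG00000093930) lies on chromosome 13 from 119690379 to 119708260 on the plus strand, and its window is chr13:119690101-119690400. Msmo1 (ENSMUSG00000031604) lies on chromosome 8 from 64718139 to 64733792 on the minus strand. Its window is chr8:64733529-64733828, around a start that lies 214 bases inside the gene model, so little of the sequence before the gene model was searched. Acsl1 (ENSMUSG00000018796) lies on chromosome 8 from 46471037 to 46536051 on the plus strand. Its window is chr8:46490716-46491015, around a start that lies 19929 bases inside the gene model. Of 2 windows for Acsl1, this one was picked because it holds the sterol element searched. Capitals mark matches, on either strand, to TCACNCCAC, a core of the sterol regulatory element bound by SREBPs, and to CCAAT, the box bound by NF-Y, or to their reverse complements.
Hmgcs1: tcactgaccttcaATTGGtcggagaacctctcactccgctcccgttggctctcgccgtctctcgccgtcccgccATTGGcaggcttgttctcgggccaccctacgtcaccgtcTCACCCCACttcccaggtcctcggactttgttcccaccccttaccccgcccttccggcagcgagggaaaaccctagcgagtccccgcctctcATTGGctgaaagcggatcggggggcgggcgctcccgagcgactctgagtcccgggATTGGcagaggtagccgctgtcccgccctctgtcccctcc
Msmo1: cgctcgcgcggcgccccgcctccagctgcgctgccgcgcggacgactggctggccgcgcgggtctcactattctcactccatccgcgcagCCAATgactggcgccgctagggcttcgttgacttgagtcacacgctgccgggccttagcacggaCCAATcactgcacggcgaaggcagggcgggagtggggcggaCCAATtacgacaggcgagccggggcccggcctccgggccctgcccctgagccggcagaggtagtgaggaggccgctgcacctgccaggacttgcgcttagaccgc
Acsl1: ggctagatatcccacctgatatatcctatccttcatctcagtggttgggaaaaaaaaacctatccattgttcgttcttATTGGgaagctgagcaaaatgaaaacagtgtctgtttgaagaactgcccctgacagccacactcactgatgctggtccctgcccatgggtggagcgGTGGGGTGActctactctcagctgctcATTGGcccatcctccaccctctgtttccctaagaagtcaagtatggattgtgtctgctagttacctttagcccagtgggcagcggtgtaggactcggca

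In Hmgcs1 the sterol element stood 137 to 129 bases before the start with 4 CCAAT boxes around it. Msmo1 held 3 CCAAT boxes, the nearest 55 to 51 bases before the start, and no match to the sterol element letters in this window. In Acsl1 the sterol element was on the opposite strand, 76 to 68 bases before the start, beside 2 CCAAT boxes. No match of one motif overlapped a match of another in these windows. Promoters were found for 34 of the 42 genes. The sterol element letters occurred in 2 of the 34 (5.88%) and in 1.44% of the 27025 genes with a promoter of that length. CCAAT occurred in 27 of the 34 (79.4%), in 14 of 15 sterol enzymes (93.3%) and in 8 of 12 fatty acid genes (66.7%), against 41.1% of all genes. The E-box CACGTG, which SREBPs and other factors bind, occurred in 7 of the 34 (20.6%), namely Scap, Insig1, Hsd17b7, Sc5d, Dhcr7, Abca1 and Elovl5, against 8.09% of all genes. These matches describe the letters in the windows and were not tied to binding.

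The remaining 14 sterol enzymes had adjusted p-values that missed the threshold and log2 fold changes between -0.44 and 0.52. In the mevalonate pathway, Idi1 was at 126 and 84.8 FPKM against 128 and 86.5 FPKM, nearly the same pair of values in both groups. Fdps, which makes farnesyl diphosphate, was at 42.7 and 29.5 FPKM against 54.2 and 34.9 FPKM, with overlap. In the steps from farnesyl diphosphate to lanosterol, Fdft1 (squalene synthase) was at 6.88 and 9.42 FPKM against 12.7 and 11.2 FPKM, without overlap (log2 fold change 0.52, unadjusted p = 0.0561, limma). Exons of Fdft1 overlap those of Ctsb. Sqle, the squalene epoxidase and a rate-limiting enzyme of the route, was at 17.4 and 13.7 FPKM against 17.0 and 10.3 FPKM. The groups overlapped, and its log2 fold change was -0.20 (95% confidence interval -0.90 to 0.49). Lss, the lanosterol synthase, stayed within 6.92 to 7.64 FPKM in all 4 libraries. Cyp51, which removes the C14 methyl group of lanosterol, was at 58.8 and 29.0 FPKM against 37.9 and 23.9 FPKM. It had the lowest log2 fold change of the route, -0.44, and also the widest spread between Brg1-sufficient replicates, 2.03-fold. Ebp, the sterol isomerase, lay between 50.6 and 53.5 FPKM in all libraries. The 95% confidence interval of Ebp (-0.32 to 0.36) spanned 0, as did that of Sqle, while those of Msmo1 (0.027 to 1.76) and Dhcr7 (0.13 to 0.89) lay above it, and the differences between enzymes were not tested.

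**Figure D2:**
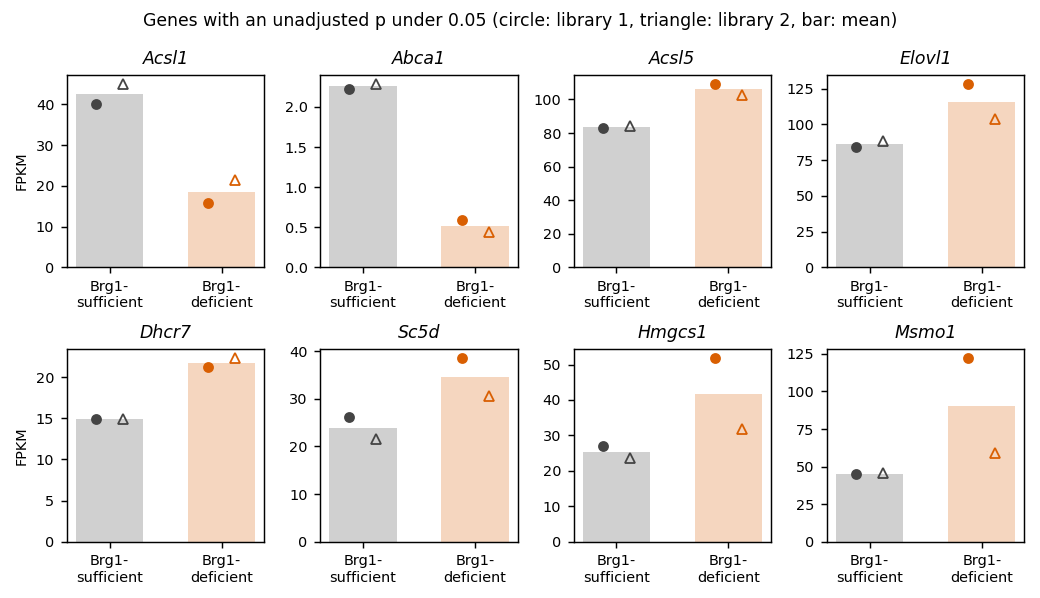
FPKM of the 8 genes with an unadjusted p under 0.05, with a panel for each gene. Bars are means of 2 libraries from 0, circles are library 1 and triangles library 2. Acsl1 and Abca1 are lower in both Brg1-deficient libraries, and the 6 others are higher in both, with Hmgcs1 and Msmo1 highest in Brg1-deficient library 1.

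Brg1-deficient library 1 carried much of the difference in the sterol enzymes. Without it, the log2 fold change of Msmo1 was 0.37 and that of Hmgcs1 was 0.32, against 1.41 and 1.01 without Brg1-deficient library 2. Sc5d changed less, to 0.35 and 0.68. Dhcr7 stayed at 0.55 and 0.48. The median log2 fold change of the 18 enzymes was 0.05 without Brg1-deficient library 1 and 0.47 without Brg1-deficient library 2. In place of 6 genes higher at an unadjusted p under 0.05, limma called 0 without Brg1-deficient library 1, 2 without Brg1-sufficient library 1 and 3 without Brg1-sufficient library 2. The wider limit took 0, 2 and 1 genes as higher without Brg1-deficient library 1, Brg1-sufficient library 1 and Brg1-deficient library 2. The sum of the proliferation markers was also highest in Brg1-deficient library 1, at 340.4 FPKM there and 262 FPKM in Brg1-deficient library 2. It was at 267 and 230 FPKM in Brg1-sufficient libraries. Pcna made up most of each sum, at 156 and 134 FPKM in Brg1-sufficient and 195 and 160 FPKM in Brg1-deficient libraries. All 12 were above 1 FPKM. In 5 of them both Brg1-deficient libraries were above both Brg1-sufficient libraries, where 24.4% of all genes tested separated upward, and the others overlapped. The part of proliferation in the sterol enzyme levels was not tested.

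The libraries numbered 1 had more of the sterol enzymes than those numbered 2 in both groups. This was noticed after the values were seen, and the labels do not say what the number stands for. In 10 of the 18 enzymes library 1 was above library 2 in both groups, and in 1, Acat2, it was below in both, where these orders held for 23.5% and 25.5% of all genes tested. Cyp51 was 2.03-fold higher in library 1 among Brg1-sufficient and 1.59-fold higher among Brg1-deficient libraries. Fdps was 1.45-fold and 1.56-fold higher, Idi1 1.48-fold and 1.47-fold, and Sqle 1.28-fold and 1.65-fold. The median difference of the 18 enzymes between library 1 and library 2 was 0.14 on the log2 scale in Brg1-sufficient and 0.51 in Brg1-deficient libraries. In the latter this exceeded the median difference between the genotypes, 0.23. Across the 18 enzymes, which share libraries and are not independent, the 2 sets of differences had a Pearson correlation of 0.25, and over the 14739 genes tested the correlation was -0.00039. Macrophage and dendritic cell markers ran the other way. Of 11, 8 were higher in library 2 in both groups, and their summed levels were 200.5 and 379.9 FPKM in Brg1-sufficient and 129.5 and 316 FPKM in Brg1-deficient libraries. Their part in the sterol enzyme values was not tested.

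**Figure D3:**
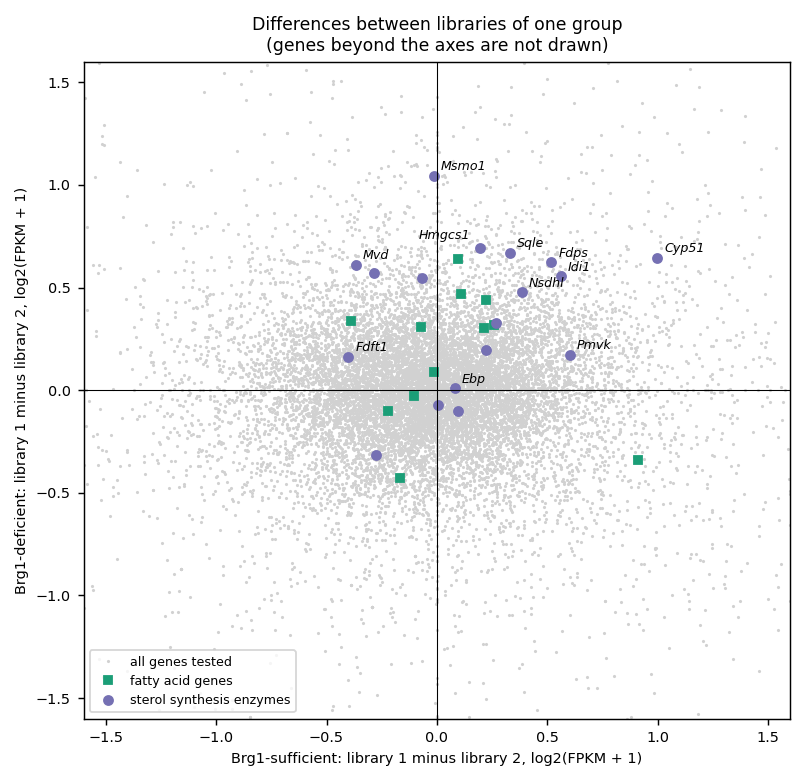
Difference between library 1 and library 2 of each gene on log2(FPKM + 1), in Brg1-sufficient (horizontal) and Brg1-deficient (vertical) ILC3s. Gray points are all genes tested within the axes, purple circles the 18 sterol synthesis enzymes and green squares the 12 fatty acid genes tested. In the upper right, 10 sterol enzymes are higher in library 1 of both groups.

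Among the 4 genes of sterol transport, efflux and receptor turnover, Abca1 was lower in Brg1-deficient ILC3s. Abca1 (ENSMUSG00000015243, chromosome 4 from 53030787 to 53159895 on GRCm38), the LXR-induced transporter that exports cholesterol to apolipoprotein A-I, was at 2.23 and 2.29 FPKM in Brg1-sufficient libraries against 0.59 and 0.44 FPKM in Brg1-deficient libraries. The groups were far apart relative to their replicates, and the Brg1-deficient mean was 0.228-fold of the Brg1-sufficient mean. On log2(FPKM + 1) the fold change was -1.11 (SE 0.31, unadjusted p = 0.0147, adjusted p = 0.248, limma), and without any of the 4 libraries in turn it stayed between -1.18 and -1.04. Its low level kept it out of the wider limit, which asks for a mean above 5 FPKM. Macrophages also express Abca1. The summed macrophage and dendritic cell markers overlapped between the groups. Of the 10 tested, 3 were lower in both Brg1-deficient libraries and 1, Fcgr1, was higher, where 20.2% and 24.4% of all genes tested separated so. The lower ones were Adgre1 at 5.76 and 6.00 FPKM against 2.09 and 3.67 FPKM, Zbtb46 at 40.4 and 31.1 FPKM against 12.2 and 7.51 FPKM, and Xcr1. The other tested markers overlapped, such as Lyz2 at 84.1 and 203 FPKM against 64.4 and 192 FPKM. Unlike 8 of the 11 markers, Zbtb46 was higher in library 1 of both groups. Their part in the Abca1 difference was not tested. Abcg1, the companion efflux transporter and also an LXR target, was at 34.2 and 38.4 FPKM against 41.0 and 47.8 FPKM, without overlap and in the opposite direction (log2 fold change 0.28, adjusted p = 0.537, limma). Stard4, a cytosolic sterol carrier and SREBP target, was at 26.0 and 22.1 FPKM against 50.3 and 27.5 FPKM, with Brg1-deficient library 1 far above the others (log2 fold change 0.61, adjusted p = 0.487, limma). Mylip, the LXR-induced ligase that degrades lipoprotein receptors, was at 10.9 and 10.8 FPKM against 7.51 and 10.4 FPKM (log2 fold change -0.26, adjusted p = 0.640, limma). These 3 LXR targets, Abca1, Abcg1 and Mylip, thus did not have log2 fold changes of the same sign, and that of Srebf1, also an LXR target, was positive as given above.

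The 12 fatty acid genes tested had log2 fold changes with a median of -0.06 and a range of -1.17 to 0.42. By an unadjusted p under 0.05 (limma), 2 were higher and 1 was lower, where 6.12% of all genes tested were higher and 6.47% lower. Fasn, the fatty acid synthase, was at 8.24 and 7.66 FPKM against 11.5 and 7.04 FPKM. The groups overlapped, and the log2 fold change of 0.17 had a 95% confidence interval from -0.49 to 0.82. Acly, which supplies cytosolic acetyl-CoA, was at 48.1 and 63.4 FPKM against 57.2 and 45.1 FPKM, and Acaca, which makes malonyl-CoA, was at 5.61 and 4.71 FPKM against 5.55 and 4.31 FPKM. All 3 tested genes from acetyl-CoA to palmitate overlapped between the groups, where 44.6% of all genes tested separated in either direction.

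In elongation and desaturation, Elovl1 was at 84.0 and 88.3 FPKM in Brg1-sufficient libraries against 128 and 103 FPKM in Brg1-deficient libraries. The groups did not overlap (log2 fold change 0.42, unadjusted p = 0.0446, adjusted p = 0.381, limma). Exons of Elovl1 overlap those of Cdc20, a cell cycle gene, and without knowledge of strand in the counting their reads cannot be separated with certainty. Elovl5 was at 107 and 91.5 FPKM against 84.0 and 61.7 FPKM, also without overlap but lower in Brg1-deficient ILC3s (log2 fold change -0.45, unadjusted p = 0.0658, adjusted p = 0.435, limma). Elovl6, which extends palmitate, was at 12.2 and 13.2 FPKM against 15.3 and 15.6 FPKM (log2 fold change 0.26, adjusted p = 0.569, limma).

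The lowest log2 fold change of the list lay in fatty acid activation, where long chain acyl-CoA synthetases (Acsl) couple fatty acids to CoA. Acsl1, an isoform with a broad role in oxidation and lipid synthesis, was at 40.1 and 45.1 FPKM in Brg1-sufficient libraries against 15.7 and 21.5 FPKM in Brg1-deficient libraries. Both Brg1-deficient libraries were well below both Brg1-sufficient libraries, and the mean was 0.437-fold. The log2 fold change was -1.17 (SE 0.20, 95% confidence interval -1.67 to -0.66, unadjusted p = 0.00158, adjusted p = 0.104, limma). Without each library in turn it was between -1.38 and -0.95. Acsl5, in contrast, was at 83.2 and 83.9 FPKM against 109 and 103 FPKM. The difference was small but larger than that between replicates (log2 fold change 0.34, SE 0.13, unadjusted p = 0.0440, adjusted p = 0.379, limma), and exons of Acsl5 overlap those of Zdhhc6. Acsl4, which prefers arachidonate, was at 15.1 and 12.4 FPKM against 14.7 and 11.6 FPKM, and its log2 fold change was -0.06. Acsl3, an isoform of lipid droplets, was low, at 2.19 and 0.70 FPKM against 0.78 and 1.25 FPKM, with replicates too far apart to order the groups. By their means, Acsl5 and Acsl1 thus stood at 83.6 and 42.6 FPKM in controls and at 106 and 18.6 FPKM without Brg1. ILC2 markers were lower in the same libraries as Acsl1 and Abca1, at the summed levels given above, and their part was not tested.

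**Figure D4:**
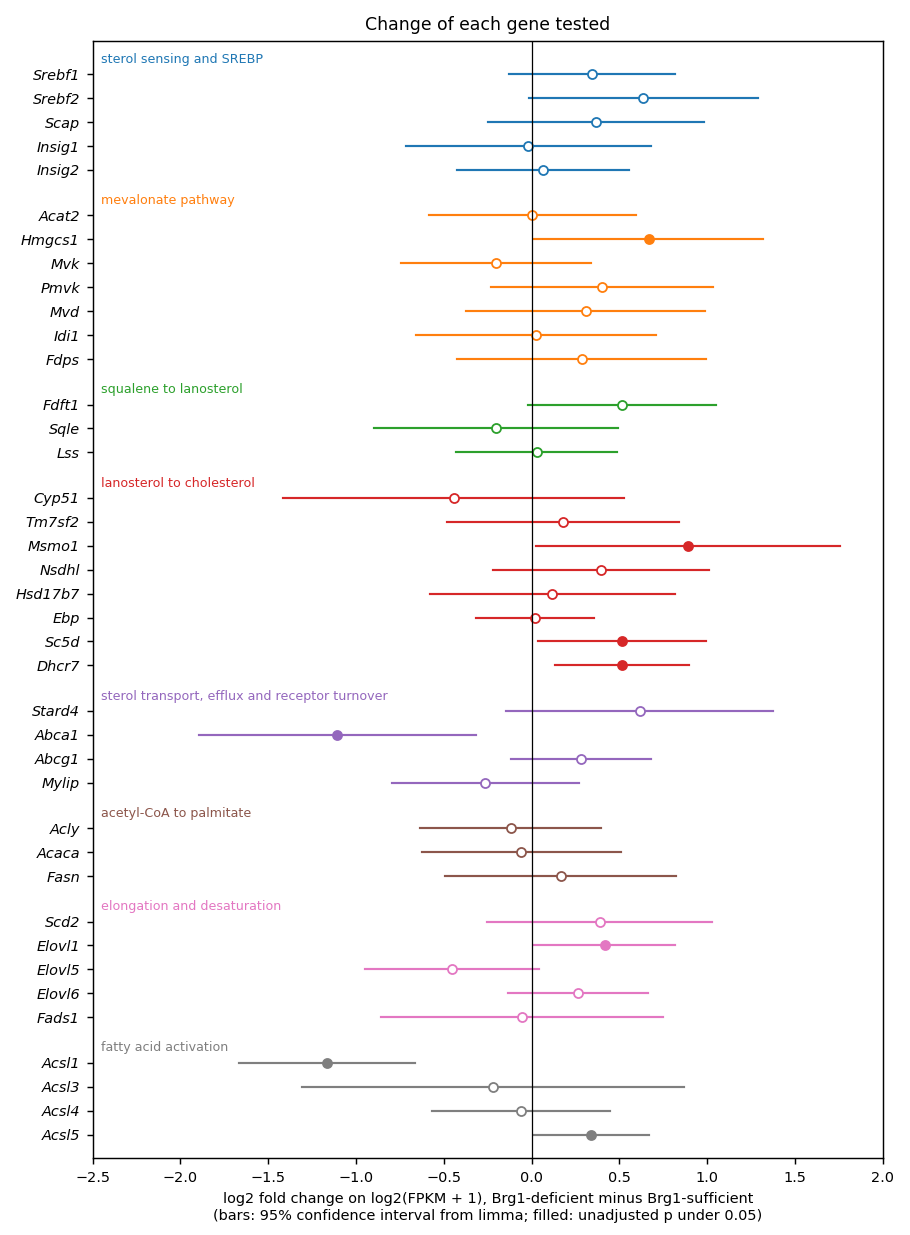
Log2 fold change of the 39 genes tested, Brg1-deficient minus Brg1-sufficient, on log2(FPKM + 1), by role. Bars are 95% confidence intervals from limma, and filled points have an unadjusted p under 0.05. The interval of Acsl1 ends at -0.66, farther below 0 than that of any other gene.

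Neighboring genes of lipid metabolism were taken from 5 further lists with 77 genes, of which 61 were tested. At an adjusted p under 0.05 limma called 0 of them, and at an unadjusted p under 0.05 it called 4 as higher and 5 as lower, against 6.12% and 6.47% of all genes tested, so that these numbers were near the background. The genes are named below by that limit alone. In sterol synthesis and ester storage, 2 of 8 tested genes were higher and 1 was lower. Soat2 and Soat1, which esterify cholesterol for storage, were the higher ones. Soat2 was at 3.96 and 5.29 FPKM against 12.2 and 10.9 FPKM (log2 fold change 1.16, adjusted p = 0.113, limma), and Soat1 was at 17.3 and 15.0 FPKM against 23.6 and 24.1 FPKM (log2 fold change 0.54, adjusted p = 0.267, limma). Their groups did not overlap, where 24.4% of all genes tested separated upward. As both genes were named by their p, this is no further support. Idi2, the second isopentenyl diphosphate isomerase, was at 7.02 and 5.99 FPKM against 1.31 and 0.88 FPKM (log2 fold change -1.85, adjusted p = 0.0811, limma), while Idi1, with a far higher level, did not differ beyond its replicates. In sterol uptake and trafficking, 2 of 11 were higher and 0 lower. One of them was Lipa, the lysosomal acid lipase that frees cholesterol from esters, at 12.1 and 13.5 FPKM against 16.7 and 20.7 FPKM (log2 fold change 0.51, adjusted p = 0.354, limma).

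In fatty acid and glycerolipid synthesis, 4 of 19 tested genes were lower at an unadjusted p under 0.05 and 0 were higher, where 6.47% and 6.12% of all genes tested were, and the median log2 fold change was -0.15. Mid1ip1, an activator of acetyl-CoA carboxylase, was at 6.60 and 5.97 FPKM against 1.80 and 1.18 FPKM (log2 fold change -1.56, adjusted p = 0.0995, limma). Dgat2, which completes triglycerides, was at 8.45 and 6.67 FPKM against 3.79 and 3.56 FPKM (log2 fold change -0.87, adjusted p = 0.199, limma). Lpcat3, an LXR target that places polyunsaturated chains in phospholipids, was at 27.3 and 27.6 FPKM against 16.6 and 19.0 FPKM (log2 fold change -0.60, adjusted p = 0.221, limma). Hacd3, a dehydratase of the elongation cycle, was the fourth, at 47.9 and 39.1 FPKM against 29.0 and 30.6 FPKM (log2 fold change -0.53, adjusted p = 0.294, limma). In all 4 genes the groups did not overlap, where 20.2% of all genes tested separated downward. As these genes were named by their p, this is no further support. Of the 14 tested genes of fatty acid oxidation and the 9 tested SREBP processing, LXR and nuclear receptor partners, 0 had an unadjusted p under 0.05.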

How the data were processed

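Total RNA of 4 libraries, 2 for each donor genotype, was amplified as cDNA and sequenced as single ends. The authors deposited FPKM values per gene and library. Per the submitters' processing notes and the study's methods, they mapped reads to GRCm38.p5 with STAR 2.5 and quantified GENCODE M16 genes with RSEM 1.2. Depth per library was not given in the sources used here, so no interval for counting error was computed, and strand in the counting was not stated. The libraries had 30046 to 36929 genes above 0 FPKM. Of 13693 ranks with a mean above 1 FPKM, 99.0% differed by less than 1% between libraries, so the distribution was already equal between libraries, and a difference in total RNA would not show.

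Groups came from the labels. Genes with a mean above 1 FPKM in either group were tested with limma 3.58.1 (lmFit, eBayes with trend) in R 4.3.3 on log2(FPKM + 1), without covariates, with Benjamini-Hochberg adjustment over all genes tested. The wider limit follows the criteria in the study's methods, with p-values from limma. The members and lists were chosen with earlier results of these data known. Values in every library were given for members with an unadjusted p under 0.05, the sterol sensing genes, Fasn, Hmgcs1, Sqle and Abca1. Up to 3 others with the highest mean stand for each role, along with members outside the test. Genes of the further lists were named only at an unadjusted p under 0.05. Gene models were from GENCODE M21 and promoters from RefSeq on GRCm38.p6. Exons of 8 members overlap another coding gene, namely Srebf1, Fdps, Fdft1, Cyp51, Tm7sf2, Elovl1, Acsl3 and Acsl5. Without knowledge of strand in the counting, their reads cannot be separated with certainty. Scripts were tested on simulated data. The driver of the Cre transgene is not reported here. Alternatives were the replicate number as a block, a pseudocount of 0.1, other FPKM filters, no trend, 2 rescalings and leaving out each library.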

Additional observations from a re-analysis of the deposited data

How the results depend on the processing

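The log2 fold changes of the genes with an unadjusted p under 0.05 kept their direction under every alternative that gave a value. With 2 libraries per group and adjusted p-values near the limit of 0.4, counts of calls moved easily. Lower genes by the wider limit numbered 1, with a range of 0 to 1 when each library was left out (0 without Brg1-sufficient library 2 or Brg1-deficient library 1). Lower genes at an unadjusted p under 0.05 numbered 2, with a range of 1 to 3 on leaving out a library, and 1 with a mean above 5 FPKM. Higher genes by the wider limit numbered 4, but 0 without a filter on low FPKM, 1 without the trend, 2 with FPKM rescaled to a common total, and 0 to 3 on leaving out a library. Those at an unadjusted p under 0.05 numbered 6, but 1 without the trend and 0 to 4 on leaving out a library. Non-overlapping genes numbered 17 to 23 higher and 5 to 14 lower on leaving out a library, since 3 libraries separate more readily. A lone library was there assumed to vary like the other group. Without the filter or without the trend, limma called 0 of all genes at an adjusted p under 0.05 (2708 and 1868 at an unadjusted p under 0.05). The causes of the other moves were not tested.

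The labels give both groups the numbers 1 and 2 without saying that a number marks a shared animal or day, and across genes the deviations of libraries that share a number were correlated at -0.00039. With the replicate number as a block, all genes called at an adjusted p under 0.05 went from 45 to 398. Members called lower went from 0 to 1, which was Acsl1 (adjusted p = 0.0141, limma), and further pathway genes from 0 to 2 lower, Idi2 (0.0159) and Mid1ip1 (0.0290), and from 0 to 1 higher, Soat2 (0.0406). By the wider limit 2 members were then lower, and at an unadjusted p under 0.05, 4 were.

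Log2 fold changes turned direction on leaving out a library in 17 genes, none with an unadjusted p under 0.05. The ranges were -0.35 to 0.31 for Insig1, -0.12 to 0.25 for Insig2, -0.15 to 0.16 for Acat2, -0.26 to 0.31 for Idi1, -0.026 to 0.60 for Fdps, -0.54 to 0.13 for Sqle, -0.023 to 0.079 for Lss, -0.94 to 0.053 for Cyp51, -0.094 to 0.45 for Tm7sf2, -0.17 to 0.40 for Hsd17b7, -0.020 to 0.059 for Ebp, -0.31 to 0.076 for Acly, -0.21 to 0.092 for Acaca, -0.15 to 0.49 for Fasn, -0.17 to 0.057 for Fads1, -0.67 to 0.24 for Acsl3 and -0.22 to 0.10 for Acsl4. The number of sterol enzymes higher in library 1 of both groups was 10 after rescaling and after quantile normalization, alternatives chosen after seeing the data. The distribution was already equal between libraries, so these alternatives could hardly move that number and do not test it.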
